A study of Homo sapiens with 18 samples.

Results

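HBE1 and HBZ encode the embryonic globin chains epsilon and zeta. Both were followed across the 6 groups of an RNA-seq experiment on HUDEP-2, an immortalised human erythroid progenitor line from cord blood that can be kept as progenitors or driven to differentiate. The members were taken by symbol, 2 genes of the 35616 in the deposited table. HBBko cells, HUDEP-2 cells whose HBB gene had been disrupted, were sampled before differentiation was started, 48 h into it and at 5 d. Unedited HUDEP-2 cells (WT) were sampled at the same 3 stages, with 3 libraries in each group and 18 in all. The labels name no drug or other agent that separates the lines, and give no number of HBBko clones. Nor do they say whether the libraries of a group came from independent cultures, so p values measure the spread between these libraries, which may be technical.

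Haemoglobin is built from an alpha-like and a beta-like chain, and each family sits in its own gene cluster under a distant enhancer. The earliest red cells, made in the yolk sac, pair zeta chains with epsilon chains. Fetal red cells pair alpha chains with gamma chains from HBG1 and HBG2, and adult red cells pair alpha chains mainly with the beta chain from HBB, so HBZ and HBE1 are normally close to silent after the embryonic period. In GENCODE v29 on GRCh38, the HBE1 gene model lies on the minus strand of chromosome 11 from 5268345 to 5505652, because 2 of its 3 transcripts read through from far upstream. The transcript that covers only the epsilon gene runs from 5268352 to 5269945, with 3 exons, 616 bases and 441 coding bases. HBZ lies on the plus strand of chromosome 16 from 152687 to 154503, at the upstream end of the annotated alpha cluster, as 1 transcript of 3 exons, 755 bases and 426 coding bases.

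Levels are in scaled TPM, normalised transcript abundances (TPM) that the authors also scaled between libraries in a step not stated in the sources used here. Library sums run from 783213 to 1508342, and read counts were not used here, so the depth behind each value is unknown. The names of the table's columns call the lines thal and wen, and thal was read as HBBko and wen as WT from the names. HBB itself averaged 4808, 23097 and 70806 scaled TPM in HBBko cells (undifferentiated, 48 h, 5 d), against 15782, 111681 and 439258 scaled TPM in WT cells. The erythroid markers EPOR, ALAS2, SLC4A1, GATA1, KLF1, TFRC and HBA1 each averaged at least 1 scaled TPM in every group. Of the 8 erythroid markers listed, these among them, 7 were called lower and 0 higher in undifferentiated HBBko cells (median log2 fold change -0.38 by the limma fit described below, 22.3% of all tested genes called lower). At 48 h 3 were lower and 0 higher (median -0.29, 9.21% of all genes lower), and at 5 d 2 were lower and 0 higher (median 0.03, 24.8% of all genes lower), or 0 lower and 5 higher after rescaling libraries to equal sums. Without replicate 3 of undifferentiated WT cells, 6 were lower and 1 higher in undifferentiated cells and 5 were lower at 48 h. Summed myeloid, megakaryocyte, lymphoid and stromal markers stayed at or below 4.58 scaled TPM in every library. The 7 markers of mast cells, basophils and eosinophils summed to 599 to 691 scaled TPM in undifferentiated HBBko cells, against 363 to 490 in undifferentiated WT cells, with CLC at 0 throughout. The ranges were 14.9 to 18.8 against 11.7 to 14.1 at 48 h, and 26.8 to 37.7 against 21.1 to 22.4 at 5 d, HBBko first; the part of these marker shifts in the results below was not tested. In RNA of whole cultures, fewer cells of a type and less RNA per cell cannot be told apart.

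HBE1 was higher in HBBko cells at every stage, and its level was highest at 5 d in both lines. Undifferentiated HBBko libraries held 0.740, 0.681 and 0.986 scaled TPM of HBE1, against 0.388, 0.196 and 0.415 in undifferentiated WT libraries. The groups did not overlap, and both lay below 1 scaled TPM. At 48 h the HBBko libraries held 4.12, 4.01 and 4.21 scaled TPM of HBE1, against 1.49, 1.26 and 1.24 in WT libraries. At 5 d the HBBko libraries held 12.2, 18.1 and 14.6 scaled TPM, against 1.72, 2.03 and 2.07 in WT libraries. Every HBBko library lay above every WT library of its stage, and replicate 2 of HBBko at 5 d was the highest of all 18 libraries. By group means, HBE1 was 2.41-fold higher in undifferentiated HBBko cells, 3.09-fold higher at 48 h and 7.73-fold higher at 5 d. The order of the 6 groups, with no overlap between neighbours, was WT undifferentiated, HBBko undifferentiated, WT at 48 h, WT at 5 d, HBBko at 48 h and HBBko at 5 d. HBE1 ranked 5144 from the top by mean level in HBBko cells at 5 d and 9391 in WT cells at 5 d, among 35616 genes.

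HBZ was the more abundant embryonic transcript in every library, and it too was higher in HBBko cells at every stage. Undifferentiated HBBko libraries held 47.1, 37.7 and 52.8 scaled TPM of HBZ, against 21.3, 16.005 and 22.5 in WT libraries. At 48 h HBZ stood at 186, 194 and 200.4 scaled TPM in HBBko libraries, against 72.9, 66.6 and 73.9 in WT libraries. At 5 d it stood at 141, 218 and 159.9 scaled TPM in HBBko libraries, against 15.95, 19.2 and 18.2 in WT libraries. The lines did not overlap at any stage, and at 5 d the lowest HBBko library was far above the highest WT library. The folds of the means were 2.30 in undifferentiated cells, 2.72 at 48 h and 9.72 at 5 d, HBBko over WT. In the order of the 6 groups, WT at 5 d overlapped WT undifferentiated at the low end and HBBko at 5 d overlapped HBBko at 48 h at the high end. HBBko undifferentiated and WT at 48 h stood between them without overlap. HBZ ranked 500 from the top by mean level in HBBko cells at 48 h and 1574 in WT cells at 48 h, against 590 in HBBko and 4664 in WT cells at 5 d.

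**Figure D1:**
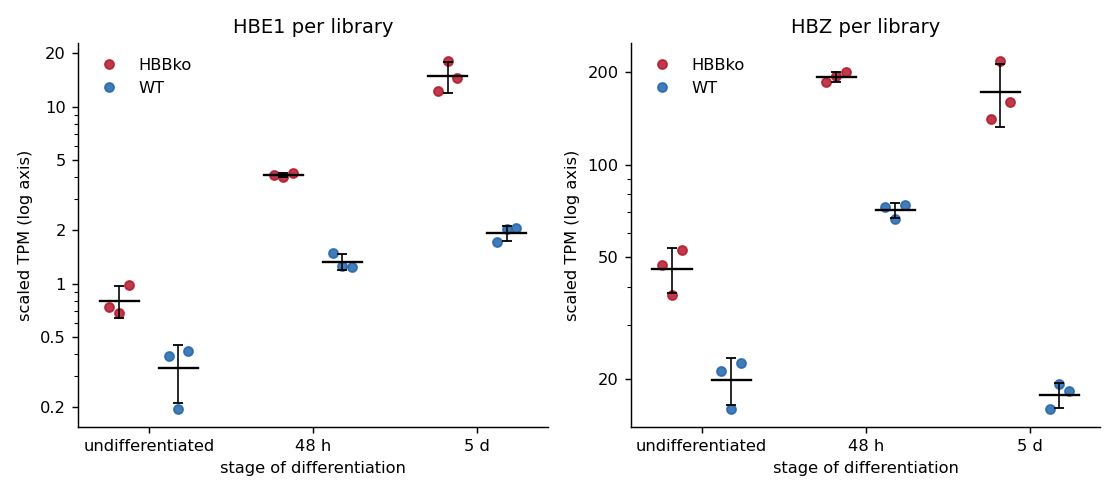
Scaled TPM of HBE1 (left) and HBZ (right) in each library, on log axes, by stage of differentiation. Points are single libraries of HBBko (red) and WT (blue) cells, horizontal lines are group means and bars the SD (n = 3). The HBBko libraries lie above the WT libraries at every stage, and at 5 d HBZ is at 141 to 218 in HBBko libraries and 15.95 to 19.2 in WT libraries.

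Both genes passed the test in all 3 comparisons of HBBko with WT cells. The test was limma on log2(scaled TPM + 1), fitted to all 18 libraries, with Benjamini-Hochberg adjustment over 12005 tested genes and a call at an adjusted p under 0.05. In undifferentiated cells, where 20.9% of tested genes were called higher in HBBko cells and 22.3% lower, the log2 fold change was 0.44 ± 0.11 (SE) for HBE1 (limma adjusted p = 0.0058) and 1.16 ± 0.15 for HBZ (limma adjusted p = 1.2e-05). At 48 h, with 9.52% of genes called higher and 9.21% lower, it was 1.14 ± 0.11 for HBE1 and 1.43 ± 0.15 for HBZ (limma adjusted p = 3.8e-06 for each). At 5 d, with 26.5% called higher and 24.8% lower, it was 2.43 ± 0.11 for HBE1 (limma adjusted p = 1.1e-10) and 3.19 ± 0.15 for HBZ (limma adjusted p = 7.5e-11). By size of change at 5 d, HBZ ranked 5 and HBE1 ranked 17 among the tested genes. The added 1 scaled TPM understates the change of HBE1, most of all in undifferentiated cells, where its levels lie below the amount added. With 0.1 added in its place, the HBE1 value in undifferentiated cells was 1.09, and with 5 added it was 0.12 and was not called (limma adjusted p = 0.17).

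The authors' deposited tables, one per stage, give log2 fold changes of their own. The authors' deposited table for undifferentiated cells lists HBE1 at 1.28 ± 0.46 (SE, q = 0.0269) and HBZ at 1.19 ± 0.22 (q = 1.4e-06). At 48 h, the authors' deposited table lists HBE1 at 1.62 ± 0.15 (q = 4.5e-24) and HBZ at 1.43 ± 0.06 (q = 9.24e-119). At 5 d, the authors' deposited table lists HBE1 at 2.92 ± 0.19 (q = 5.92e-53) and HBZ at 3.25 ± 0.20 (q = 1.13e-55), ranks 62 and 44 by size among 14783 genes.

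**Figure D2:**
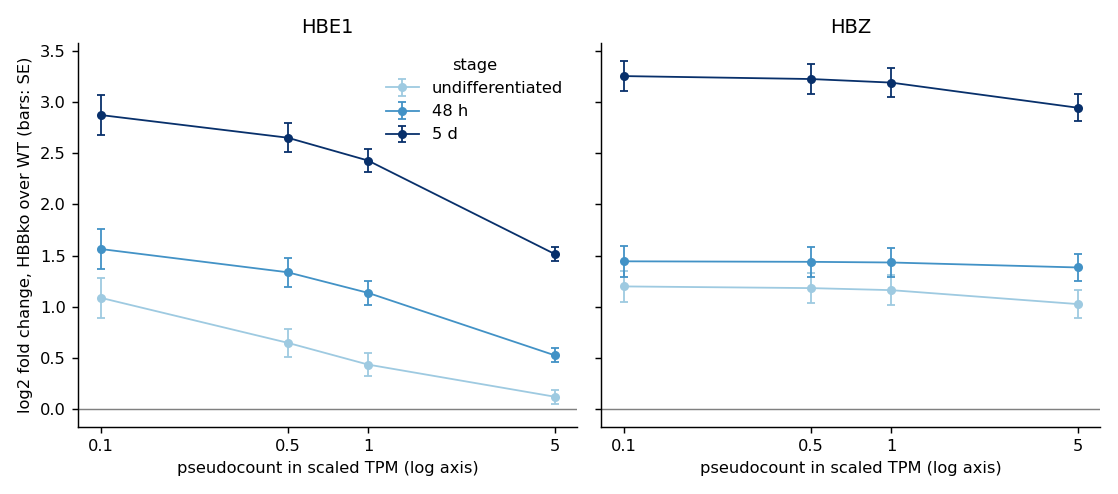
Log2 fold change of HBE1 (left) and HBZ (right), HBBko over WT, against the amount added to scaled TPM before taking logs (log axis), for the 3 stages; points are limma estimates and bars their SE. HBE1 in undifferentiated cells falls to 0.12 with 5 added and reaches 1.09 with 0.1 added, while HBZ, at higher levels, shifts little.

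During differentiation the paths of the genes parted after 48 h. In the first 48 h both were called higher in both lines (limma, Benjamini-Hochberg). HBE1 changed by 1.51 ± 0.11 on the log2 scale in HBBko cells (limma adjusted p = 3.9e-09), where 25.1% of tested genes were called higher and 40.1% lower. It changed by 0.81 ± 0.11 in WT cells (limma adjusted p = 8.8e-06), where 23.5% were called higher and 41.4% lower. HBZ changed by 2.07 ± 0.15 in HBBko cells (limma adjusted p = 1.4e-09) and by 1.80 ± 0.15 in WT cells (limma adjusted p = 8.3e-09). On the linear scale the mean of HBE1 was 5.13-fold higher at 48 h than in undifferentiated cells in HBBko and 3.99-fold higher in WT, and the mean of HBZ was 4.22-fold and 3.57-fold higher.

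Between 48 h and 5 d, HBE1 was called higher in both lines and HBZ was called lower in WT cells. In HBBko cells the log2 change of HBE1 from this step was 1.63 ± 0.11 (limma adjusted p = 5.1e-10), a 3.64-fold higher mean at 5 d. In WT cells it was 0.33 ± 0.11 (limma adjusted p = 0.013), a 1.46-fold higher mean. That WT step turned to -0.06 (limma adjusted p = 0.64) when every library was rescaled to an equal sum, and missed the threshold with 5 scaled TPM added (0.13, limma adjusted p = 0.090). HBZ fell by 1.94 ± 0.15 on the log2 scale in WT cells (limma adjusted p = 1.1e-09), so that its mean at 5 d was 0.25 of its mean at 48 h. In HBBko cells the HBZ step was -0.19 ± 0.15 and was not called (limma adjusted p = 0.25), with a 95% interval of -0.49 to 0.12. It was called lower, at -0.36 (limma adjusted p = 0.021), without replicate 2 of HBBko at 5 d, and at -0.63 (limma adjusted p = 0.00031) after rescaling to equal sums, and it was 0.07 (limma adjusted p = 0.66) under median-of-ratios scaling. With the replicate number as a block within each stage it kept its value of -0.19 and was called (limma adjusted p = 0.028). That block pairs HBBko with WT libraries of 1 stage and does not pair 48 h with 5 d libraries. Same-numbered HBBko libraries of these 2 stages deviated from their group means with correlations of 0.02 to 0.08. Genes called higher and lower between 48 h and 5 d made up 30.2% and 49.5% of those tested in HBBko cells, and 30.8% and 49.5% in WT cells. The median tested gene stood at -0.20 in this step in each line. Steps of one line share its 48 h libraries.

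The difference between the lines was itself larger at 5 d than at 48 h for both genes. The interaction, the log2 fold change between the lines at 5 d minus that at 48 h, was 1.29 ± 0.16 for HBE1 (limma adjusted p = 2.9e-05) and 1.76 ± 0.21 for HBZ (limma adjusted p = 1.5e-05), where 11.5% of tested genes were called higher and 13.1% lower. Between undifferentiated cells and 48 h it was 0.70 ± 0.16 for HBE1 (limma adjusted p = 0.012) and 0.27 ± 0.21 for HBZ (limma adjusted p = 0.42), where 7.67% were called higher and 5.51% lower. The HBZ value was not called, and its 95% interval ran from -0.16 to 0.70. The early HBE1 interaction was not called with 0.1 scaled TPM added in place of 1 (0.48, limma adjusted p = 0.29).

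Measured over the 3 stages together, both levels were higher in HBBko cells by nearly the same fold. The mean of the 3 stage differences in log2 scaled TPM, with nothing added, was 1.97 for HBE1, a 3.91-fold difference, and 1.97 for HBZ, a 3.92-fold difference. An exact two-sided permutation test that reassigned the line within each stage over all 8000 relabellings gave p = 0.00025 for each, the smallest it can give, or 0.00035 after adjustment over the 7 levels, shares and ratios tested. Within 1 stage, 3 libraries against 3 cannot give an exact permutation p below 0.1, so the values by stage rest on the limma fit.

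Each gene's share of its own globin family does not depend on how libraries were scaled. HBE1 made up 0.0150%, 0.0130% and 0.0184% of beta-like globin (HBE1, HBG1, HBG2, HBD and HBB) in undifferentiated HBBko libraries, against 0.00306%, 0.00155% and 0.00183% in WT libraries. At 5 d it made up 0.0108%, 0.0146% and 0.0116% in HBBko libraries, against 0.000394%, 0.000469% and 0.000445% in WT libraries. The group means ran 0.0155%, 0.0138% and 0.0124% over the stages in HBBko cells, and 0.00215%, 0.00119% and 0.000436% in WT cells. The mean share was thus lower at each later stage in both lines. In HBBko cells it stayed within a narrow range and libraries of the stages overlapped, while in WT cells they did not overlap. Averaged over the stages the share was 13.5-fold higher in HBBko cells (exact permutation test, p = 0.00025, adjusted 0.00035). HBB, the main term of the WT sum, is itself the disrupted gene, so this share combines a higher HBE1 with a lower HBB.

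HBZ made up more of its family, and its share was lower at each later stage in both lines. Of alpha-like globin (HBZ, HBM, HBA1, HBA2 and HBQ1), HBZ made up 0.586%, 0.489% and 0.596% in undifferentiated HBBko libraries, against 0.351%, 0.303% and 0.209% in WT libraries. At 48 h the share was 0.227%, 0.242% and 0.233% in HBBko libraries, against 0.0871%, 0.0806% and 0.0688% in WT libraries. At 5 d it was 0.0424%, 0.0646% and 0.0462% in HBBko libraries, against 0.00513%, 0.00626% and 0.00569% in WT libraries. The lines did not overlap at any stage. Averaged over the stages the share was 3.73-fold higher in HBBko cells, and the ratio of HBZ to the sum of HBA1 and HBA2 was 3.74-fold higher (exact permutation test, p = 0.00025, adjusted 0.00035 for each). HBA1 and HBA2, the genes of the adult alpha chain, did not pass the test between the lines at any stage, with log2 fold changes from -0.13 to 0.24. They were called higher in HBBko cells under some alternatives. In undifferentiated cells this held with library weights (0.39 for HBA1 and 0.40 for HBA2, limma adjusted p = 0.026 for each). It also held there without replicate 3 of undifferentiated WT (0.52, limma adjusted p = 0.00045, and 0.55, limma adjusted p = 0.00064). They were called higher at 5 d after rescaling to equal sums (0.42 for HBA1, limma adjusted p = 0.018, and 0.47 for HBA2, limma adjusted p = 0.011) and at each stage under quantile normalization. That normalization sets values by rank. At 48 h and 5 d HBB ranked above HBA1 and HBA2 in WT cells and below them in HBBko cells. Quantile normalization gave the same log2 fold changes at both stages (0.60 for HBA1 and 0.42 for HBA2), which thus do not measure their levels.

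**Figure D3:**
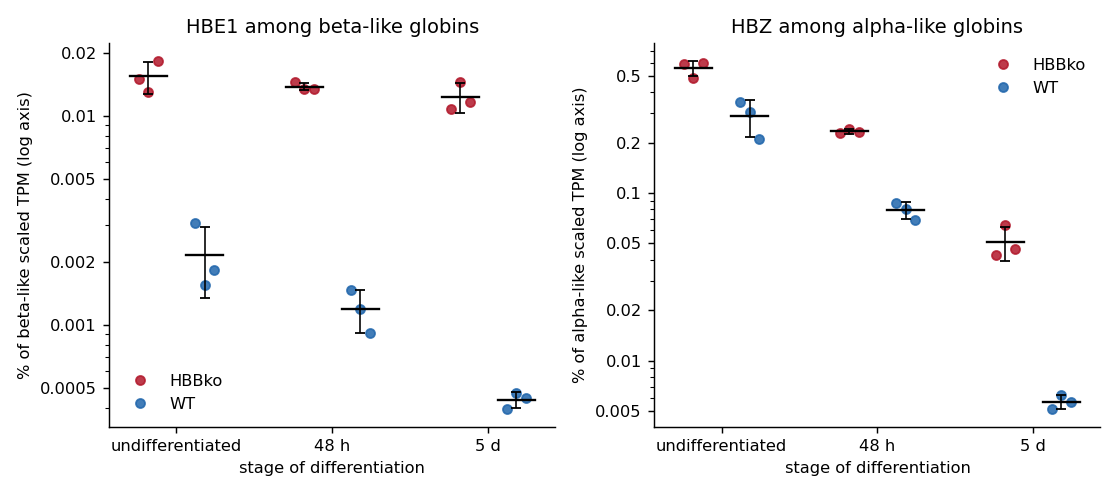
HBE1 as a percentage of beta-like globin (left) and HBZ as a percentage of alpha-like globin (right) in each library, on log axes. Points are libraries of HBBko (red) and WT (blue) cells, lines are means and bars the SD (n = 3). The mean HBE1 share is lower at each later stage in both lines, but HBBko libraries stay between 0.0108% and 0.0184% and overlap between stages. The HBZ share is lower at each later stage in both lines.

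Set against gamma-globin, HBE1 showed no steady difference between the lines. Before differentiation HBE1 equalled 0.221% ± 0.0394 of the sum of HBG1 and HBG2 in HBBko cells, against 0.161% ± 0.0700 in WT cells (SD, n = 3 each). At 48 h it equalled 0.0616% ± 0.00288 in HBBko cells and 0.0596% ± 0.0180 in WT cells, and the lines overlapped at both of these stages. At 5 d it equalled 0.0283%, 0.0342% and 0.0278% in HBBko libraries, against 0.0390%, 0.0565% and 0.0345% in WT libraries. There every HBBko library was below every WT library, though the highest HBBko value was just under the lowest WT value. Over the 3 stages the HBBko to WT ratio of this measure was 1.03 (exact permutation test, p = 0.831, adjusted 0.967), with log2 differences of 0.53, 0.09 and -0.50 from undifferentiated cells to 5 d. With 1 scaled TPM added to each gene the mean log2 difference became -0.59 (exact permutation test, adjusted p = 0.0025). The added 1 understates the HBE1 difference far more than that of HBG1 and HBG2, which by itself lowers this measure in HBBko cells.

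The embryonic genes were also compared with each other. HBZ was 63.6, 55.3 and 53.5 times HBE1 in undifferentiated HBBko libraries, against 54.8, 81.9 and 54.2 times in WT libraries. At 48 h the ratio was 45.2, 48.4 and 47.6 in HBBko libraries, against 48.98, 53.1 and 59.4 in WT libraries. By 5 d it was 11.6, 12.01 and 10.97 in HBBko libraries, against 9.28, 9.48 and 8.80 in WT libraries. The ratio was thus far lower at 5 d than at the earlier stages in both lines. At 48 h every HBBko library was below every WT library, and at 5 d every HBBko library was above every WT library. Over the 3 stages the ratio between the lines was 1.003 (exact permutation test, p = 0.967, adjusted 0.967), with log2 differences of -0.12, -0.19 and 0.32 by stage. This average joins differences of opposite direction, so it does not show that the lines were alike at each stage. Adding 1 scaled TPM to each gene moved the mean log2 difference to 0.60 (exact permutation test, adjusted p = 0.00029). The added 1 understates the HBE1 difference far more than that of HBZ, which by itself raises this ratio in HBBko cells.

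**Figure D4:**
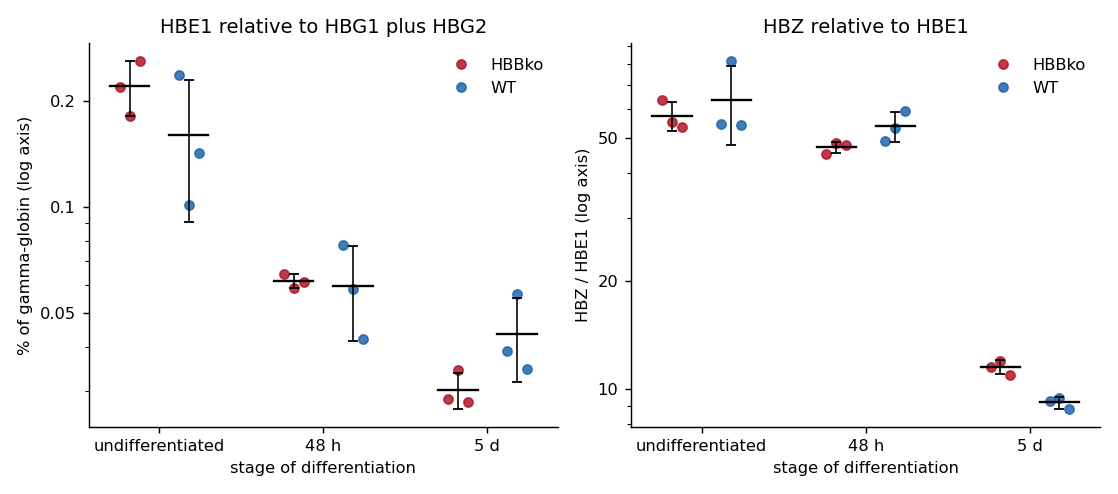
HBE1 as a percentage of HBG1 plus HBG2 (left) and the ratio of HBZ to HBE1 (right) in each library, on log axes. Points are libraries of HBBko (red) and WT (blue) cells, lines are means and bars the SD (n = 3). The lines overlap in HBE1 relative to gamma-globin except at 5 d, where HBBko libraries lie lower, and HBZ over HBE1 is 8.80 to 12.01 at 5 d against 45.2 or more at the earlier stages.

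The other genes of the beta cluster were compared in the same way. HBG2, which gives most of the gamma chain transcript here, had limma log2 fold changes of 0.76, 1.53 and 3.43 from undifferentiated cells to 5 d, HBBko over WT, and HBG1 had 1.05, 1.72 and 3.42. Their group means at 5 d were 10.6-fold and 10.5-fold higher in HBBko cells. HBBP1, a transcribed pseudogene between the gamma and delta genes, stood at 2.30, 2.43 and 3.10, a larger value than HBE1 at each stage. HBD, the gene of the minor adult delta chain, was called lower at 48 h at -1.37, with 0.01 in undifferentiated cells (limma adjusted p = 0.97) and -0.20 at 5 d (limma adjusted p = 0.21). For undifferentiated cells the authors' deposited table lists HBD at -0.48 ± 0.21 (SE, q = 0.0715), unlike the value here. At 5 d it was called lower when only the 5 d groups entered the fit (limma adjusted p = 0.0015), the authors' deposited table lists it at -0.20 (q = 3.69e-05), and it stood at 0.14 after rescaling to equal sums. Of the 6 beta-cluster genes, HBE1 included, 4 were called higher at each stage, where 20.9%, 9.52% and 26.5% of all tested genes were called higher, and the median log2 fold change was 0.60, 1.33 and 2.77, against -0.01, 0.02 and 0.02 over all tested genes.

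In the alpha cluster HBZ stood apart by size of change. HBM, the gene of a mu chain with no known protein in haemoglobin, was at 0.19 and -0.21 before 5 d without a call and at 0.58 at 5 d (limma adjusted p = 0.012), or 0.38 (limma adjusted p = 0.074) under quantile normalization. It was called higher in undifferentiated cells without replicate 3 of undifferentiated WT (0.49, limma adjusted p = 0.0025). HBQ1, the theta gene, was called lower at 5 d at -0.40 (limma adjusted p = 0.039), a call lost when any 1 library of either 5 d group was left out. It stood at -0.07 (limma adjusted p = 0.69) after rescaling to equal sums. The authors' deposited table for 5 d lists it at -0.42 (q = 9.29e-12), and every HBBko library lay below every WT library at 5 d. Of the 5 alpha-cluster genes, HBZ was the only one called at 48 h by the limma fit to all libraries, with a cluster median of -0.13. HBQ1 was called lower when only the 48 h groups entered the fit (-0.15, limma adjusted p = 0.043). The authors' deposited table for 48 h lists HBQ1 at -0.16 (q = 0.00825). HBA1 and HBA2 were called at 48 h under quantile normalization, with the change of rank given above. Without replicate 3 of undifferentiated WT cells, a library with more HBB than the others of its group, 4 of the 5 genes were called higher in undifferentiated HBBko cells instead of HBZ alone.

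**Figure D5:**
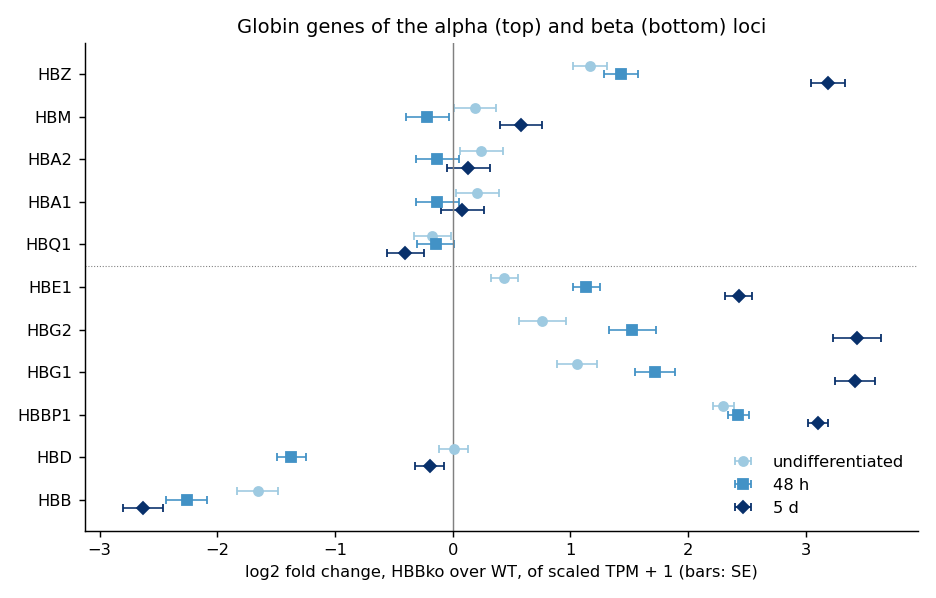
Log2 fold change of scaled TPM + 1, HBBko over WT, for the genes of the alpha cluster (top) and beta cluster (bottom) in undifferentiated cells (light circles), at 48 h (squares) and at 5 d (dark diamonds); bars are the SE of the limma fit. At 5 d HBZ reaches 3.19, HBE1 2.43, HBBP1 3.10, HBG1 3.42 and HBG2 3.43, while HBA1 and HBA2 stay near 0 and HBB lies at -1.66 to -2.63.

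Replicates of HBE1 and HBZ kept the same order in 3 of the 6 groups, undifferentiated HBBko, undifferentiated WT and HBBko at 5 d. Replicate 2 of HBBko at 5 d was highest in both genes, and replicate 2 of undifferentiated WT cells was lowest in both. Across the 18 libraries the log2 levels of HBE1 and HBZ had a Pearson r of 0.749, which ranked HBZ 460 among 12004 genes by likeness to HBE1. HBE1 followed HBG1 (r = 0.952) and HBG2 (r = 0.942) more closely. Outside the 11 listed globin genes, the genes most like HBE1 were ZWINT, a kinetochore protein (r = 0.958), FAM13A (0.956), VPS37C, a subunit of the endosomal sorting machinery (0.953), AC104389.5 (0.952) and PSMB4, a proteasome subunit (0.951). FAM13A averaged 6.63 ± 0.352 scaled TPM in HBBko cells at 5 d and 1.97 ± 0.234 in WT cells at 5 d (SD, n = 3 each). AC104389.5, a transcript of the beta cluster, shares 89.9% of its stretches of 31 bases with HBG1 and 78.7% with HBG2. Its values may thus hold reads of gamma-globin, and the part of these was not tested. The genes most like HBZ were TSC22D1 (0.933), MED31, a Mediator subunit (0.929), CAPN2, a calpain protease (0.922), APOBEC3G, a cytidine deaminase (0.919), and MVD, an enzyme of cholesterol synthesis (0.919). TSC22D1, a transcriptional regulator, averaged 101 ± 1.27 scaled TPM in HBBko cells and 85.4 ± 2.13 in WT cells at 48 h, against 82.1 ± 3.94 in HBBko and 40.5 ± 5.36 in WT cells at 5 d. These correlations describe libraries that share 6 groups. Over the 6 group means, 2 of the 5 genes listed for HBE1 and 1 of the 5 for HBZ were again among the closest 5.

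Known regulators of the globin switch were counted in the same comparisons. Of 32 listed repressors and repressor-complex subunits, 12 were called lower and 5 higher in undifferentiated HBBko cells, 6 and 4 at 48 h, and 11 and 8 at 5 d, with medians of -0.08, 0.00 and -0.07. As shares, 37.5%, 18.8% and 34.4% were lower, against 22.3%, 9.21% and 24.8% of all tested genes, and 15.6%, 12.5% and 25.0% were higher, against 20.9%, 9.52% and 26.5%. Rescaling to equal sums gave 5 lower and 6 higher in undifferentiated cells, 3 and 11 at 48 h, and 4 and 19 at 5 d. With 1 library left out the counts ran from 3 to 12 lower and 4 to 9 higher in undifferentiated cells, with 3 lower without replicate 2 of undifferentiated HBBko and 7 without replicate 3 of undifferentiated WT. With the replicate number as a block, 13 were lower and 9 higher in undifferentiated cells. At 48 h the count of 4 higher became 1 without replicate 2 of HBBko or replicate 3 of WT at 48 h, 2 without replicate 3 of HBBko or replicate 1 of WT at 48 h, and 7 without replicate 3 of undifferentiated WT. BCL11A, which silences gamma-globin, averaged 12.4 ± 0.476 scaled TPM in HBBko cells and 21.8 ± 2.84 in WT cells at 5 d (SD, n = 3 each), a log2 fold change of -0.77, after -0.55 at 48 h. NFIX, a repressor of fetal globin, stood at -0.33 at 48 h and -0.76 at 5 d, SOX6, a partner of BCL11A, at -0.60 at 48 h, and PRMT5, an arginine methyltransferase, at 1.03 at 5 d; all of these were called. The repressors MYB and ZBTB7A were called lower at 5 d at -0.24 and -0.29, but stood at 0.07 and 0.04 after rescaling to equal sums. The ZBTB7A call was also lost without replicate 2 of HBBko or replicate 3 of WT at 5 d. SOX6 was at -0.44 in undifferentiated cells (limma adjusted p = 0.012), and at -0.31 (limma adjusted p = 0.071) without replicate 3 of undifferentiated WT cells. At 5 d SOX6 stood at 0.11 and was not called (limma adjusted p = 0.51). After rescaling to equal sums it was called higher at 5 d (0.44, limma adjusted p = 0.0039). In undifferentiated cells GATAD2A, a subunit of the NuRD complex, was called higher at 0.38, and KDM1A, a histone demethylase, lower at -0.31. Both went the other way later. GATAD2A was called lower at 5 d (-0.38, limma adjusted p = 0.00060), but stood at -0.04 (limma adjusted p = 0.72) after rescaling to equal sums. KDM1A was called higher at 48 h (0.21, limma adjusted p = 0.0091), but not without replicate 3 of WT at 48 h (limma adjusted p = 0.064). At 5 d KDM1A averaged 25.5 ± 1.08 scaled TPM in HBBko cells and 19.5 ± 0.455 in WT cells (SD).

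Of 28 genes listed as activators and looping factors, 25 passed the filter on low values. At least KLF3 among them also has a known repressor role, so the counts are not of activators alone. In undifferentiated HBBko cells 13 were called lower and 3 higher, at 48 h 5 lower and 0 higher, and at 5 d 9 lower and 4 higher, with medians of -0.20, -0.13 and -0.14. Over all tested genes, 22.3%, 9.21% and 24.8% were called lower and 20.9%, 9.52% and 26.5% higher at these stages. After rescaling to equal sums the counts were 4 lower and 4 higher at 48 h and 2 lower and 14 higher at 5 d. The 48 h count of 5 lower became 9 with the replicate block, 9 without replicate 2 and 8 without replicate 3 of undifferentiated WT. KLF1, needed for HBB transcription, averaged 479 ± 17.3 scaled TPM in HBBko cells and 662 ± 46.4 in WT cells at 48 h (SD, n = 3 each), a log2 fold change of -0.46. Its means in undifferentiated cells were 303 in HBBko and 445 in WT. At 5 d KLF1 was called lower (-0.39, limma adjusted p = 0.0020), but stood at -0.06 (limma adjusted p = 0.53) after rescaling to equal sums. ATF4, of the integrated stress response, was called lower at -0.97 in undifferentiated cells and -0.56 at 48 h, and stood at -0.00 at 5 d, or at 0.33 after rescaling to equal sums. KLF3, counted in this list, was called lower at -0.48 at 48 h, though in mice it is known to repress embryonic globin genes. The enhancer-looping factor LDB1 was called higher at 5 d at 0.64, and KLF6 and MAFK, a partner of NFE2, lower at -1.04 and -0.64. GATA2 and NFYA, a CCAAT-binding subunit, were called higher in undifferentiated cells at 0.95 and 0.84.

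Of 16 genes listed for fetal or adult stage, 15 were in the table and 11 were tested. In undifferentiated HBBko cells 3 were called lower and 2 higher, at 48 h 1 lower and 0 higher, and at 5 d 3 lower and 2 higher, with medians of -0.13, -0.10 and -0.10. The shares lower were 27.3%, 9.09% and 27.3%, and the shares higher 18.2%, 0% and 18.2%, against 22.3%, 9.21% and 24.8% lower and 20.9%, 9.52% and 26.5% higher over all tested genes. After rescaling to equal sums 1 was lower and 6 higher at 5 d, with a median of 0.23. IGF2BP2, an RNA-binding protein, was at -1.11 at 5 d, and AHSP, the alpha-haemoglobin chaperone, at 0.30. AHSP stood at -0.04 under quantile normalization. IGF2BP1, an RNA-binding protein of fetal cells, was called lower at -0.37 at 5 d, and stood at -0.07 (limma adjusted p = 0.64) after rescaling to equal sums. LIN28B, another fetal RNA-binding protein, was called higher in undifferentiated cells at 0.34. ARID3A was called lower at -0.36 there and at -0.54 at 48 h. The LIN28B and undifferentiated ARID3A calls were lost when only the undifferentiated groups entered the fit (limma adjusted p = 0.091 and 0.13), and LIN28B also without replicate 1 of undifferentiated HBBko (limma adjusted p = 0.060). The ARID3A call was also lost without replicate 2 or 3 of undifferentiated HBBko or replicate 1 of undifferentiated WT. Without replicate 3 of HBBko at 5 d, IGF2BP1 stood at -0.23 (limma adjusted p = 0.061) and AHSP at 0.26 (limma adjusted p = 0.068).

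How far reads can be assigned to these genes bears on their values. Of 586 stretches of 31 bases in the short HBE1 transcript, 516 (88.1%) also occur in the read-through model AC104389.4, which was listed at 0 in all 18 libraries. A further measure is overlap with gamma-globin, whose sum is far larger than HBE1. In the short transcript 20 stretches (3.41%) occur in HBG1 and 20 in HBG2, and in the read-through transcripts 20 occur in HBG1 and 26 or 27 in HBG2. The part of these shared stretches in the HBE1 values was not tested. Of 725 stretches in HBZ, 346 (47.7%) also occur in the pseudogene HBZP1 and 175 (24.1%) in a transcript of HBM. HBZP1 was at 9.42, 6.18 and 5.30 scaled TPM in HBBko libraries at 5 d, against 1.18, 2.71 and 1.83 in WT libraries at 5 d, and at 2.14 or less elsewhere. Adding HBZP1 to HBZ gave a mean log2 difference of 1.94 over the stages, against 1.97 for HBZ alone.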

How the data were processed

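Total RNA of 18 HUDEP-2 samples was extracted with RNeasy and made into TruSeq v2 libraries, per the labels' protocols. kallisto, sleuth and the hg38 build are named, with no version, in the submitters' processing notes. The authors deposited a per-gene table of TPM scaled between libraries, treated here as a signal. The authors also deposited 3 tables of log2 fold changes (a score with no fixed range), each with a standard error. These deposited tables give a p-value and a q-value per gene, per the file headers. The groups, the members, the gene lists and the tests were chosen with earlier results of these data known. The design assumed unscaled TPM; the log-scale test was not altered.

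Of 35616 genes, the 12005 that reached 1 scaled TPM in 3 or more libraries were tested. log2(scaled TPM + 1) was fitted with limma 3.58.1 in R 4.3.3 (lmFit, eBayes with trend), 1 mean per group, 12 residual degrees of freedom, 9 comparisons, two-sided, Benjamini-Hochberg adjustment over all tested genes. The script was tested on simulated data. Levels, shares and ratios were compared by exact permutation within stage. Depth is unknown, so precision comes from the spread of replicate libraries. Named genes were the globin genes, up to 3 called members of each regulator list with the largest change per stage, ATF4, MYB, BCL11A, ZBTB7A and KLF1, and the 5 tested genes outside the globin clusters most correlated with each member; 1 gene that this rule names is not reported here. Alternatives were other pseudocounts, filters, scalings, fits, a replicate block and leaving out each library; pseudocount 0.1 and the addition of HBZP1 were chosen after seeing the data. Same-numbered HBBko and WT libraries deviated together from their group means in undifferentiated cells (r of 0.12 to 0.17) and at 5 d (0.13 to 0.18), all 3 pairs over 0.1, but not at 48 h (-0.03 to 0.02); this pairing comes from the data, not the labels. Gene models were taken from GENCODE v29.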

Additional observations from a re-analysis of the deposited data

Results flagged for a closer look

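For 3 results the HBBko to WT difference changed between stages by a test of the change itself (limma interaction, Benjamini-Hochberg adjustment). For HBE1 the log2 difference was larger at 48 h than in undifferentiated cells by 0.70 (adjusted p = 0.012), with all 3 HBBko libraries above all 3 WT libraries at both stages. With 0.1 scaled TPM added in place of 1 this change was 0.48 and was not called (adjusted p = 0.29), and with nothing added the stage differences were 1.33 in undifferentiated cells and 1.63 at 48 h. For HBE1 it was larger at 5 d than at 48 h by 1.29 (adjusted p = 2.9e-05), and for HBZ by 1.76 (adjusted p = 1.5e-05), again with no overlap between the lines at either stage.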

How the results depend on the processing

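Over 30 alternatives each, the 6 HBBko to WT differences of HBE1 and HBZ kept their direction and their call, except HBE1 in undifferentiated cells with a pseudocount of 5 (0.12, limma adjusted p = 0.17; range over the alternatives 0.00040 to 0.17). HBE1 in WT cells between 48 h and 5 d was 0.13 with a pseudocount of 5 (adjusted p = 0.090) and reversed to -0.060 with equal sums (0.64). The early HBE1 interaction was 0.48 with a pseudocount of 0.1 (0.29). HBZ in HBBko cells between 48 h and 5 d was -0.63 with equal sums (0.00031), reversed to 0.072 under median-of-ratios scaling (0.66), and ranged from -0.36 to -0.052 when 1 library was left out. A pseudocount of 1 understates the HBE1 difference between the lines. With it, the HBE1 to gamma-globin ratio reversed to -0.59 and the HBZ to HBE1 ratio moved to 0.60. Leaving out 1 library, with nothing added, gave -0.052 to 0.15 and -0.030 to 0.069 for these ratios. The causes were not tested.

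Same-numbered HBBko and WT libraries did not deviate together at 48 h, which cannot show whether they were paired, and no label gives a pairing. Same-numbered WT libraries of undifferentiated cells and of 48 h did deviate together (r of 0.10 to 0.19), and the part of this in the results was not tested. The replicate block was set within each stage and paired no libraries across stages. With it, HBZ in HBBko cells between 48 h and 5 d was -0.19 and was called (limma adjusted p = 0.028). No other call on HBE1 or HBZ changed. Rescaling to equal sums shifted the median tested gene to 0.14 at 48 h and 0.27 at 5 d, HBBko over WT, and the share of called genes that were higher to 84.2% and 86.0%, against 50.8% and 51.7% as deposited. The genes called at 48 h (2249) numbered 4191 with equal sums, 4275 with only the groups compared, 5189 with library weights, and 1179 without replicate 3 of WT at 48 h, and 1409 to 1445 without any 1 HBBko library at 48 h. In undifferentiated cells 5197 became 2882 with only the groups compared. The early interaction called 1582 genes, and 830 to 2481 with 1 library left out. The late interaction called 2958, and 4682 with library weights. Depth is unknown, so no counting interval can be given for HBE1 levels below 1 scaled TPM.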
